A study of Mus musculus with 22 samples.

Results

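The neurotensin gene Nts and the genes of its receptors, Ntsr1, Ntsr2 and Sort1, were followed in the hypothalamus of mice carrying Lewis lung carcinoma. They are 4 of the 18820 genes on the array, taken by symbol from the platform's annotation. The members were chosen by symbol and, where a gene has several probe sets, by the highest mean level, but each of the 4 had a single probe set. The low Nts level on day 17 was already known when these genes were chosen, so its values are a description and are no independent support for a change. The animals were male C57BL/6 mice housed singly, and their age is not given in the sources used here. Lewis lung carcinoma grows when transplanted into this strain, and its cells were injected under anaesthesia into a hind leg muscle. Hypothalami of tumour-bearing mice gave 5 arrays on day 10, 7 on day 14 and 6 on day 17, and those of controls gave 4 on day 14. Each array is read as 1 mouse, since the labels number replicates without naming animals. No genotype was altered in any group, and the labels do not say whether controls received a sham injection.

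Neurotensin is a short peptide cut from a larger precursor by prohormone convertases and released by neurons. Given into the brain it lowers food intake, and many neurotensin neurons of the lateral hypothalamus carry the leptin receptor. Ntsr1 is the high-affinity receptor and signals through Gq and phospholipase C, Ntsr2 is the low-affinity receptor and is found on glia as well as neurons, and Sort1 encodes sortilin, a sorting receptor of the secretory and endosomal pathway that also binds neurotensin.

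In the RefSeq annotation of mouse build GRCm38.p6, Nts lies on chromosome 10 from 102481756 to 102490418 and Ntsr1 on chromosome 2 from 180499976 to 180544979. Ntsr2 lies on chromosome 12 from 16653443 to 16660236, and Sort1 on chromosome 3 from 108283974 to 108361519. The Nts promoter is shown because the gene is known in the rat to be driven through AP-1 and cyclic AMP response elements, and the factors that bind them are described with the pathway genes. The window is 250 bases before to 50 bases after the start in RefSeq, on the minus strand at chr10:102490369-102490668, with the motif matches in capitals.
Nts promoter: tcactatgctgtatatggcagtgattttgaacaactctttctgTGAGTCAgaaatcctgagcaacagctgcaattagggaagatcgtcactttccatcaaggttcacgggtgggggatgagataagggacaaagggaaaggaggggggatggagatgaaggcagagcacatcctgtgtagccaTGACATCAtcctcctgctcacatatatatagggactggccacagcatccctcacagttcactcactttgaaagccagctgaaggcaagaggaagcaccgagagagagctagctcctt
The first match is to the AP-1 motif TGANTCA, at -207 from the start, and the second is to the CRE-like motif TGACNTCA, at -67. Both motifs were searched on both strands, and the matches do not overlap. Of 32851 mouse promoters of this length, 7.81% held the AP-1 motif, 8.83% held the CRE-like motif and 0.761% held both. The windows of Ntsr1 and Ntsr2 held 0 matches to either motif. A match describes letters in a window and shows no binding.

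The deposited values are log2 expression, normalized between arrays by the authors, and a difference of 1 is a doubling. The 22 arrays were alike, with medians from 5.27 to 5.34 and correlations between arrays from 0.980 to 0.995. Their number limits the precision. All 13 hypothalamic region markers lay above the background measure of 3.87, below which 95% of the probe sets of odorant and vomeronasal receptors fell. The arrays differed in genes known from neighbouring brain regions. Slc6a3, the dopamine transporter gene of midbrain and some hypothalamic neurons, ran from 5.78 to 10.28, with both high and low arrays in every group. The thalamus markers were lower in mean in tumour-bearing mice for 7 of 7 genes on each day, and limma called 0 of them, with 4, 0 and 1 of 7 at an unadjusted p below 0.05 on days 10, 14 and 17. Over all genes 10.7%, 10.5% and 16.6% had such a p on those days, the background for every such count in a list. Their mean ran from 6.19 to 7.60 in controls and from 6.10 to 7.18 in tumour-bearing mice. The accessions form a run of 9 arrays and a later run of 13, each holding all groups. The labels do not call these runs batches, and 2272 genes differed between them (limma adjusted p below 0.05). All levels of the 4 genes lay above background on every array. Levels of different probe sets are not comparable.

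The mean level of Nts was below that of controls on each tumour day, and on day 17 it fell to 61.7% of the control level. The control mice read 7.51, 7.37, 7.29 and 7.36, a mean of 7.38 ± 0.09 (SD, n = 4). On day 10 the mice read 6.64, 6.66, 6.60, 6.69 and 7.20, a mean of 6.76 ± 0.25 (SD, n = 5). All 5 lay below every control, with 4 of them close together and replicate 5 apart. On day 14 the lowest, median and highest levels were 6.65, 6.90 and 7.46, with a mean of 6.94 ± 0.29 (SD, n = 7). Here 6 of 7 mice lay below every control, and replicate 4 lay within the control range. On day 17 the lowest, median and highest were 6.55, 6.66 and 6.93, with a mean of 6.68 ± 0.13 (SD, n = 6). All 6 lay below every control. Tumour arrays lay entirely below the controls for 2.24% of all genes on day 10, 1.06% on day 14 and 3.30% on day 17. These shares count genes with every tumour array below every control. None was computed for partial counts such as 6 of 7, here or for the receptor genes below. From highest to lowest, the group means ran control, day 14, day 10 and day 17, and the tumour-bearing groups overlapped each other.

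**Figure D1:**
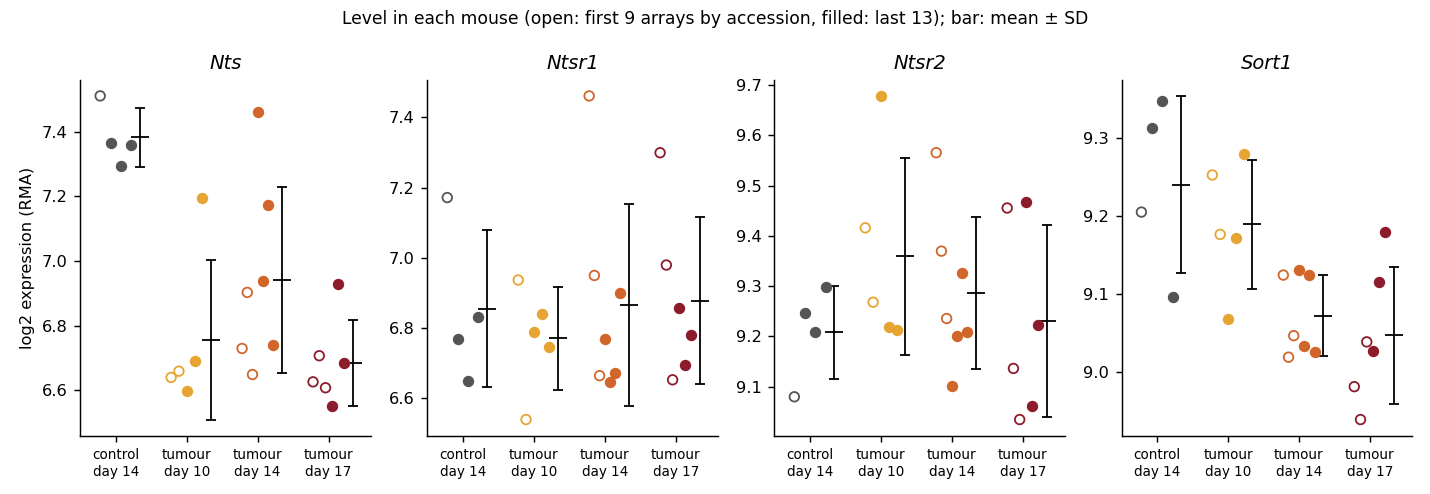
Level of Nts, Ntsr1, Ntsr2 and Sort1 in each mouse on the log2 scale (vertical axis, a separate range per gene) by group (horizontal axis), with open points for the 9 arrays of the earlier run, filled points for the 13 of the later run, and bars for mean ± SD. Every Nts point of days 10 and 17 lies below the 4 controls, while the Ntsr1 and Ntsr2 groups overlap.

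The day 17 difference in Nts was -0.70 ± 0.13 (SE, log2, 95% interval -0.97 to -0.43, n = 6 and 4) and passed the limma test over all genes (adjusted p = 0.0114). Of all genes, 0.685% fell on day 17 and 0.436% rose. On day 10 Nts differed by -0.63 ± 0.14 (SE, log2, 95% interval -0.91 to -0.34, n = 5 and 4), 64.8% of control, and did not pass (limma adjusted p = 0.0914). That day 0.00531% of genes fell and 0.101% rose. On day 14, the only day with controls of its own, Nts differed by -0.44 ± 0.13 (SE, log2, 95% interval -0.70 to -0.18, n = 7 and 4), 73.7% of control (limma adjusted p = 0.172). On that day 0.0213% of genes fell and 0.197% rose. The median over all genes was 0.00, -0.00 and -0.01 on days 10, 14 and 17. The same 4 controls serve all 3 comparisons, and controls of days 10 and 17 were not part of the design, so time is mixed into both. In bulk tissue, fewer neurotensin cells and less Nts RNA per cell cannot be told apart.

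**Figure D2:**
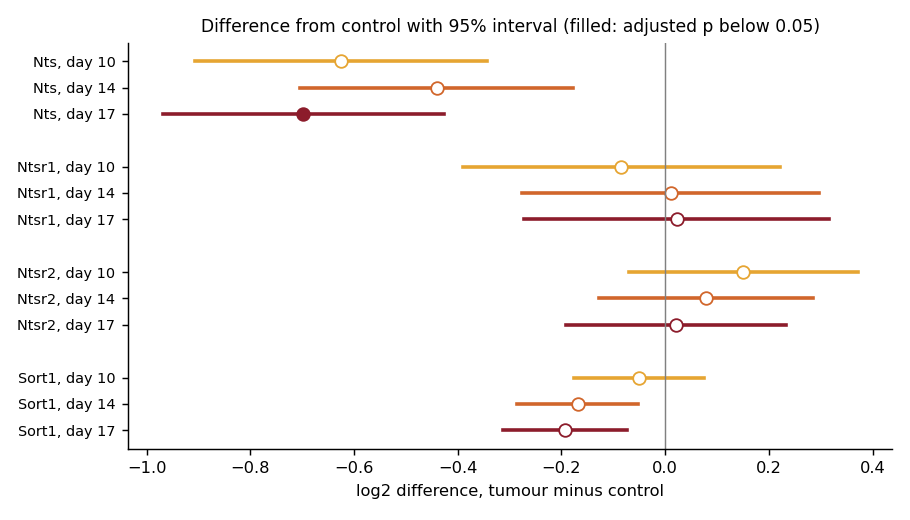
Difference from control in log2 units (horizontal axis) for each gene and day, tumour minus control, with 95% intervals from limma and filled points where the adjusted p was below 0.05. The Nts intervals lie below 0 on all 3 days, and the single filled point is Nts on day 17 at -0.70.

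Within the later run, which held 3 controls, Nts differed by -0.51, -0.26 and -0.62 on days 10, 14 and 17. In the earlier run, with 1 control, the differences were -0.86, -0.75 and -0.86. The day 17 call was lost in the later run alone (limma adjusted p = 0.189) and without control replicate 1 (-0.66, limma adjusted p = 0.0659), the highest of the controls. It was also lost without the 4 arrays highest in thalamus markers (-0.67, limma adjusted p = 0.317), which include 2 of the 4 controls. Without tumour day 14 replicate 4, the call was made on day 10 (-0.63, limma adjusted p = 0.0311) and on day 14 (-0.53, limma adjusted p = 0.0420). Without tumour day 10 replicate 5 it was made on day 10 (-0.74, limma adjusted p = 0.0245).

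Several marker lists moved with Nts. Of 7 measured neuron markers, 7 had a lower mean in tumour-bearing mice on each day. Nefl, a neurofilament gene, fell on day 17 by 0.23 ± 0.06 (SE, log2, limma adjusted p = 0.0445), when 0.685% of all genes fell and 0.436% rose. On days 10, 14 and 17, 1, 3 and 3 of the 7 had an unadjusted p below 0.05, against 10.7%, 10.5% and 16.6% of all genes. The mean of the 7 ran from 10.82 to 10.91 in controls and from 10.68 to 10.82 in tumour-bearing mice, and 17 of 18 tumour-bearing mice lay below every control. With this mean as a covariate, Nts differed by -0.51 on day 17 and did not pass (limma adjusted p = 0.167). Since the neuron mean itself nearly separates tumour-bearing mice from controls, this fit cannot tell it apart from the group. Across all 22 mice, Nts rose with the neuron mean, with Pearson's r = 0.67 (permutation p = 0.000560, adjusted over 72 relations 0.0202) and Spearman's rho = 0.64 (permutation p = 0.00165, adjusted 0.0297). Without the 2 arrays farthest from the median of the neuron mean, r was 0.64 (permutation p = 0.00257). Within the 18 tumour-bearing mice r was 0.46 (permutation p = 0.0542) and within the later run 0.53 (permutation p = 0.0616, n = 13). Within the earlier run r was 0.86 (exact permutation p = 0.0190, n = 9) and rho 0.50 (exact permutation p = 0.178). Its single control was highest in both measures, and without it r was 0.43 (exact permutation p = 0.307, n = 8). The relation therefore did not pass within the tumour-bearing mice or the later run. Among the earlier arrays it passed by r only with their single control.

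Red cell and endothelial list means were higher on average in tumour-bearing mice. Of 6 endothelial markers limma called 0 on any day, and 1, 2 and 1 had a lower mean on days 10, 14 and 17. Those at an unadjusted p below 0.05 numbered 0, 2 and 2, against 10.7%, 10.5% and 16.6% of all genes. Of the 3 measured red cell markers, 2 had a mean above background. The red cell mean lay above every control in 14 of 18 tumour-bearing mice, and the endothelial mean in 13 of 18. Other lists reached such counts. The Gq signalling mean lay below every control in 14 of 18 and above every control in 2. That of the sortilin relatives and partners lay below in 13 of 18 and above in 0. No share over all genes or lists was computed for these counts or for that of the neuron mean. Nts and the red cell mean gave r = -0.62 over 22 mice (permutation p = 0.00194, adjusted over 72 relations 0.0233) and rho = -0.50 (permutation p = 0.0202, adjusted 0.146). Without the 2 arrays farthest from the median r was -0.44 (permutation p = 0.0506). It was -0.61 in the later run (permutation p = 0.0279, n = 13), -0.63 in the earlier run (exact permutation p = 0.0984, n = 9) and -0.24 among the 18 tumour-bearing mice (permutation p = 0.331). Nts and the endothelial mean gave r = -0.47 and rho = -0.41 (permutation p = 0.0291 and 0.0620, adjusted 0.181 and 0.320). Nts rose with the mean of the 7 sortilin relatives and partners, with r = 0.63 (permutation p = 0.00162, adjusted 0.0233) and rho = 0.65 (permutation p = 0.00154, adjusted 0.0297). Without the 2 farthest arrays that r was 0.60 (permutation p = 0.00594). It was 0.74 in the later run (permutation p = 0.00318, n = 13), 0.64 in the earlier run (exact permutation p = 0.0149, n = 9) and 0.47 among the 18 tumour-bearing mice (permutation p = 0.0518). The part of red cells and vessels in the Nts level was not tested.

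**Figure D3:**
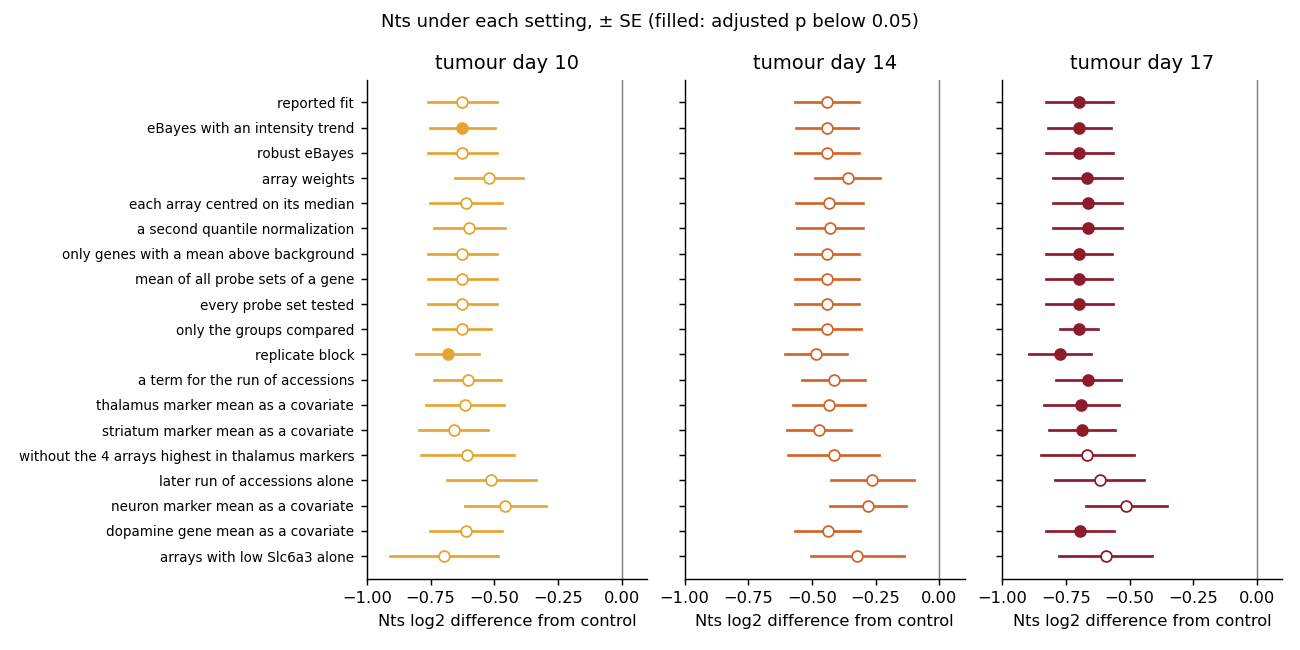
Nts difference from control in log2 units (horizontal axis) under the reported fit and 18 alternative settings (rows), for each tumour day, with bars for SE and filled points where the limma adjusted p was below 0.05. Every point lies below 0, and on day 17 the open points are those without the 4 arrays highest in thalamus markers, in the later run alone, with the neuron mean as a covariate and in the arrays with low Slc6a3 alone.

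Ntsr1, the high-affinity receptor gene, did not pass the test on any day. The controls read 7.17, 6.77, 6.65 and 6.83, a mean of 6.86 ± 0.22 (SD, n = 4), and the day 10 mice read 6.94, 6.54, 6.79, 6.84 and 6.75, a mean of 6.77 ± 0.15 (SD, n = 5). On day 14 the lowest, median and highest were 6.65, 6.77 and 7.46, with a mean of 6.87 ± 0.29 (SD, n = 7). On day 17 they were 6.65, 6.82 and 7.30, with a mean of 6.88 ± 0.24 (SD, n = 6). All groups overlapped, and replicate 1, from the earlier run, was the highest of each. Against control Ntsr1 differed by -0.08 ± 0.15 (SE, log2, 95% interval -0.39 to 0.22, limma adjusted p = 0.867) on day 10, by 0.01 ± 0.14 (-0.28 to 0.30, adjusted p = 0.989) on day 14 and by 0.02 ± 0.14 (-0.27 to 0.32, adjusted p = 0.956) on day 17. Within the later run these differences were 0.04, -0.00 and 0.03, and against the single control of the earlier run -0.43, -0.15 and -0.19. The later run read lower than the earlier one by 0.20 ± 0.09 (SE, limma adjusted p = 0.140).

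Ntsr1 was set beside the dopamine genes, since the receptor is known to be carried by midbrain dopamine neurons. That relation was picked after the values were seen. Over all 22 mice, Ntsr1 and the mean of the 6 dopamine genes gave r = 0.63 (permutation p = 0.00145, adjusted over 72 relations 0.0233). Spearman's rho was 0.69 (permutation p = 0.000600, adjusted 0.0227). Within the earlier run r was 0.75 (exact permutation p = 0.0242, n = 9) and rho 0.68 (exact permutation p = 0.0503). Within the later run r was 0.15 (permutation p = 0.622, n = 13), and among the 18 tumour-bearing mice 0.64 (permutation p = 0.00312). The widest gap in Slc6a3 left 12 arrays from 5.78 to 7.65 and 10 arrays from 8.55 to 10.28, so correlations are also given within each. Slc6a3 belongs to the 6 dopamine genes, so each set spans less of the range of their mean. Among the 12, Ntsr1 and the mean of the 6 dopamine genes gave Pearson's r = 0.38 (permutation p = 0.223) and Spearman's rho = 0.62 (permutation p = 0.0377). Among the 10, r was 0.49 (permutation p = 0.154) and rho 0.68 (permutation p = 0.0351). These p-values are not adjusted. Both runs hold arrays of either kind. The later run had 8 of the low arrays, with r = 0.04 (exact permutation p = 0.932) and rho = 0.21 (exact permutation p = 0.619), so the relation was not found there. The later run's 5 high arrays gave r = 0.55 (exact permutation p = 0.350) and rho = 0.70 (exact permutation p = 0.233), too few to decide. The earlier run held 4 low and 5 high arrays, and no value was computed for either. The part of dopamine cells or of the run in the Ntsr1 levels was not tested.

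**Figure D4:**
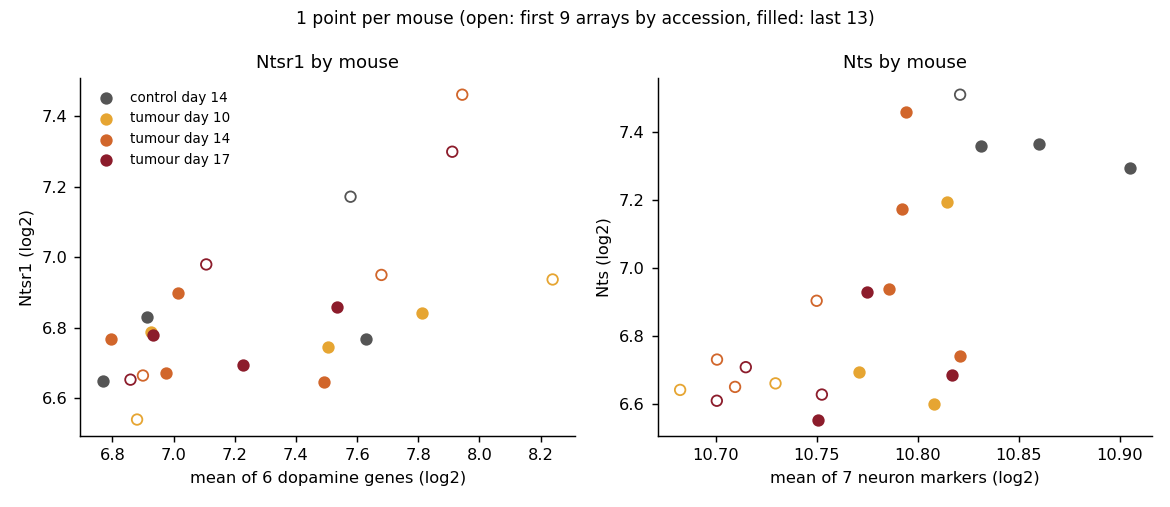
Left, Ntsr1 level in each mouse (vertical axis, log2) against the mean of 6 dopamine genes (horizontal axis, log2). Right, Nts level against the mean of 7 neuron markers, with open points for the 9 arrays of the earlier run, filled points for the 13 of the later run, and colours for the groups. The highest Ntsr1 levels, up to 7.46, are open points with a high dopamine mean, and the 4 controls lie at the upper right for Nts.

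Ntsr2, the low-affinity receptor gene, also did not pass on any day. Controls read 9.08, 9.25, 9.21 and 9.30, a mean of 9.21 ± 0.09 (SD, n = 4), and day 10 mice 9.42, 9.27, 9.68, 9.22 and 9.21, a mean of 9.36 ± 0.20 (SD, n = 5). Its lowest, median and highest levels were 9.10, 9.24 and 9.57 on day 14, with a mean of 9.29 ± 0.15 (SD, n = 7). On day 17 they were 9.03, 9.18 and 9.47, with a mean of 9.23 ± 0.19 (SD, n = 6). Above every control lay 2 of 5, 3 of 7 and 2 of 6 tumour-bearing mice on days 10, 14 and 17, and the groups overlapped. The differences from control were 0.15 ± 0.11 (SE, log2, 95% interval -0.07 to 0.37, limma adjusted p = 0.632), 0.08 ± 0.10 (-0.13 to 0.28, adjusted p = 0.816) and 0.02 ± 0.10 (-0.19 to 0.23, adjusted p = 0.941). In the later run they were 0.12, -0.04 and 0.00, and in the earlier run 0.26, 0.31 and 0.13. Astrocyte markers, 10 of 10 above background, had 0 members called by limma on any day, with 2, 3 and 3 of 10 at an unadjusted p below 0.05, against 10.7%, 10.5% and 16.6% of all genes.

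Sort1 had lower means on days 14 and 17, and neither passed the test. Controls read 9.21, 9.31, 9.35 and 9.10, a mean of 9.24 ± 0.11 (SD, n = 4), and day 10 mice 9.25, 9.18, 9.07, 9.17 and 9.28, a mean of 9.19 ± 0.08 (SD, n = 5). On day 14 the lowest, median and highest were 9.02, 9.05 and 9.13, with a mean of 9.07 ± 0.05 (SD, n = 7), and on day 17 they were 8.94, 9.03 and 9.18, with a mean of 9.05 ± 0.09 (SD, n = 6). Below every control lay 1 of 5, 4 of 7 and 4 of 6 mice, so the groups overlapped on each day. The differences were -0.05 ± 0.06 (SE, log2, 95% interval -0.18 to 0.07, limma adjusted p = 0.794) on day 10, -0.17 ± 0.06 (-0.28 to -0.05, adjusted p = 0.254) on day 14 and -0.19 ± 0.06 (-0.31 to -0.07, adjusted p = 0.102) on day 17. On day 17 that is 87.5% of the control level. Without control replicate 4, the lowest control, day 17 passed (-0.24, limma adjusted p = 0.0467). The later run gave -0.08, -0.17 and -0.14, and the earlier run 0.01, -0.14 and -0.22.

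Sort1 was lower in mice with more red cell signal. Nts had such a relation over all 22 mice, after adjustment by r only, and not among the 18 tumour-bearing mice (r = -0.24, permutation p = 0.331). Of the 3 measured red cell markers, Alas2 and Slc4a1 rose on days 14 and 17, by 2.42 ± 0.34 and 2.10 ± 0.35 on day 17 (SE, log2, limma adjusted p = 0.00128 and 0.00372). Over all genes 0.197% rose on day 14 and 0.436% on day 17. Of the 3 markers, 2 had a mean above background. Sort1 and the mean of the 3 gave Pearson's r = -0.74 over 22 mice (permutation p = 9e-05, adjusted over 72 relations 0.00648) and Spearman's rho = -0.69 (permutation p = 0.000630, adjusted 0.0227). Without the 2 arrays farthest from the median r was -0.68 (permutation p = 0.000840). It was -0.57 among the 18 tumour-bearing mice (permutation p = 0.0128), -0.77 in the later run (permutation p = 0.00264, n = 13) and -0.69 in the earlier run (exact permutation p = 0.0400, n = 9). Over those runs rho was -0.54 (permutation p = 0.0588) and -0.53 (exact permutation p = 0.148). Sort1 also rose with the mean of the 6 microglia markers, with r = 0.63 over 22 mice (permutation p = 0.00140, adjusted 0.0233) and rho = 0.62 (permutation p = 0.00237, adjusted 0.0341). Without the 2 farthest arrays that r was 0.56 (permutation p = 0.0103), and it was 0.57 in the later run (permutation p = 0.0391) and 0.82 in the earlier run (exact permutation p = 0.00754, n = 9). Of 72 relations between the 4 genes and the lists, 6 passed by Pearson's r and 7 by Spearman's rho after Benjamini-Hochberg adjustment. By rho alone, Sort1 passed with the prohormone processing genes (rho = -0.61, permutation p adjusted 0.0374, r = -0.56, adjusted 0.0557). So did Ntsr1 with the genes of hypothalamic neurotensin neurons (rho = 0.59, permutation p adjusted 0.0496, r = 0.57, adjusted 0.0516). The part of red cells or microglia in the Sort1 level was not tested.

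Between tumour days, none of the 4 genes passed the limma test. The share of all genes called was 0.00531% for day 14 against day 10, 0% for day 17 against day 10 and 0% for day 17 against day 14. In that order, 1341, 1562 and 785 genes had an unadjusted limma p below 0.05, which is 7.13%, 8.30% and 4.17% of all genes. The smallest adjusted p belonged to Sort1 on day 17 against day 10, at -0.14 ± 0.05 (SE, log2, n = 6 and 5, limma adjusted p = 0.509, unadjusted 0.0153). Sort1 on day 14 against day 10 differed by -0.12 ± 0.05 (SE, limma adjusted p = 0.672, unadjusted 0.0355). Nts on day 17 against day 14 differed by -0.26 ± 0.11 (SE, 95% interval -0.49 to -0.02, limma adjusted p = 1.000, unadjusted 0.0327).

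The measured genes of peptide processing and cleavage did not pass the test, and Pcsk2, the gene of the convertase PC2, was not measured here. In the counts of each list at an unadjusted p below 0.05, which follow for days 10, 14 and 17, the share over all genes was 10.7%, 10.5% and 16.6%. Of 5 measured prohormone processing genes, limma called 0 on any day, with 0, 1 and 1 at an unadjusted p below 0.05. The list's median was 0.10, 0.14 and 0.13 on days 10, 14 and 17. Scg5, which encodes 7B2, the chaperone of the convertase PC2, differed by 0.10, 0.15 and 0.16 (limma adjusted p = 0.562, 0.342 and 0.181), and the convertase gene Pcsk5 by 0.15, 0.14 and 0.13. Of 5 peptidases that can cleave neurotensin, limma called 0, with 0, 1 and 2 at an unadjusted p below 0.05 and medians of -0.03, -0.03 and 0.00. Ace, the angiotensin-converting enzyme gene, differed by 0.12, 0.18 and 0.27 (limma adjusted p = 0.0961 on day 17), and Thop1, which encodes thimet oligopeptidase, by -0.03, -0.07 and -0.18.

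Among 7 sortilin relatives and partners, Sorl1 fell on day 17 by 0.21 ± 0.05 (SE, log2, limma adjusted p = 0.0445), and 0 rose. Over all genes 0.685% fell and 0.436% rose that day. On days 10, 14 and 17, 2, 2 and 2 of the 7 had an unadjusted p below 0.05, against 10.7%, 10.5% and 16.6% of all genes. Sorl1 encodes SorLA, a sorting receptor of the same family as sortilin. On days 10 and 14 Sorl1 differed by -0.14 and -0.17 and did not pass, and the list's median was -0.10, -0.03 and -0.06. Of 9 measured Gq signalling genes, limma called 0, with 1, 1 and 2 at an unadjusted p below 0.05 and medians of -0.06, 0.00 and -0.02 on the log2 scale. The phospholipase C gene Plcb4 differed by -0.21, -0.15 and -0.17, and Plcb1 by -0.05, -0.04 and -0.13.

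Among 8 genes of AP-1, CREB and the glucocorticoid receptor, Jun, an AP-1 subunit, fell on day 17 by 0.28 ± 0.06 (SE, log2, limma adjusted p = 0.0329), and 0 rose. Over all genes 0.685% fell and 0.436% rose that day. On days 10, 14 and 17, 1, 3 and 2 of the 8 had an unadjusted p below 0.05, against 10.7%, 10.5% and 16.6% of all genes. Jun differed by -0.11 on day 10 and by -0.28 on day 14 (limma adjusted p = 0.0578). The list's median was -0.07, -0.14 and -0.07, and 8 of 8 had a lower mean on day 14. Of 11 genes that hypothalamic neurotensin neurons are known to carry, limma called 0, with 2, 1 and 4 at an unadjusted p below 0.05 and medians of -0.08, -0.07 and -0.09. Lepr, the leptin receptor gene, differed by 0.27, 0.44 and 0.50 (limma adjusted p = 0.505, 0.193 and 0.0708). Crh, the corticotropin-releasing hormone gene, differed by -0.36, -0.11 and -0.20, with a mean below the background measure. Of 6 dopamine genes limma called 0, with 1, 0 and 0 at an unadjusted p below 0.05 and medians of 0.16, -0.03 and 0.02. Slc18a2, the vesicular monoamine transporter gene, differed by 0.44, 0.28 and 0.30, and the dopamine receptor gene Drd1 by 0.08, -0.04 and -0.10.

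**Figure D5:**
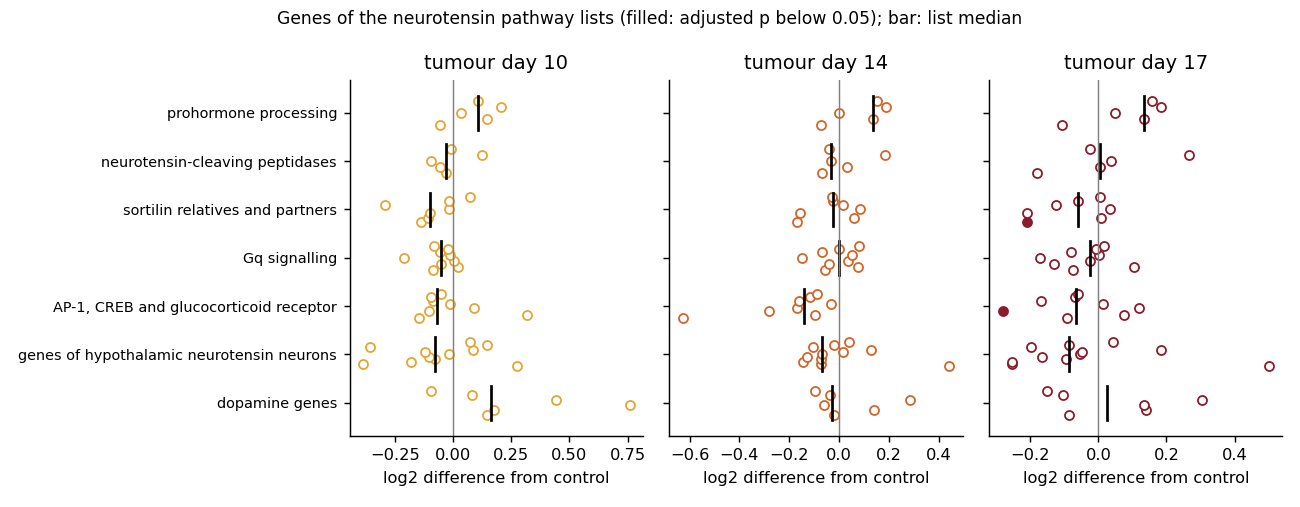
Difference from control in log2 units (horizontal axis, a separate range per day) for every measured gene of the 7 pathway lists (rows), with black bars for list medians and filled points where the limma adjusted p was below 0.05. The filled points are Sorl1 and Jun, both on day 17.

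The genes whose levels ran most like each of the 4 across the 22 arrays were sought among 13120 genes above background, by Pearson's r. For Nts they were Cbln2, a synaptic organiser gene (0.85), Grik1, a kainate receptor subunit (0.84), Akap6, an anchoring protein of protein kinase A (0.83), Mgat3, a glycosyltransferase gene (0.83), and Manf, a gene of the endoplasmic reticulum stress response (0.82). Once group means were taken out, the same r values were 0.70, 0.73, 0.67, 0.58 and 0.55. Since these genes were picked for running like Nts over the same arrays, controls included, their differences from control follow in part from that choice and are given without a test. On day 17 they were -0.40 for Cbln2, -0.25 for Grik1, -0.17 for Akap6, -0.22 for Mgat3 and -0.21 for Manf, in log2 units. Ntsr1 ran most like Rnf144b (0.78), a ubiquitin ligase gene, Camk2n2 (0.77), an inhibitor of CaM kinase II, and Pnkd (0.76). Ntsr2 ran most like Pcsk1n (0.89), which encodes the convertase inhibitor proSAAS, Dedd (0.86) and Ly6e (0.85). For Sort1 they were Tmeff2 (0.86), Sparcl1 (0.84), an astrocyte matrix protein gene, and Map6d1 (0.83). These r values rest on the same arrays and their shared normalization, and are given as a description.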

How the data were processed

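Hypothalamic RNA was measured on 22 arrays, each read as 1 mouse, and per the labels' protocols each RNA had an integrity number over 8. The deposited table holds log2 values that, per the submitters' processing notes, the authors computed by RMA. RMA subtracts background, brings arrays to a common distribution and combines the probes of a set. Its version and the annotation release are not given in the sources used here. Of 35556 probe sets, 21218 had 1 gene in the platform annotation, 1881 had several and 12457 were unnamed here. The probe set with the highest mean stood for each of 18820 genes, and 0 array pairs were identical. Gene coordinates and promoters are RefSeq's, build GRCm38.p6.

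A limma (version 3.58.1, R 4.3.3) model of 4 group means with eBayes was fitted to all genes, two-sided, with 18 residual degrees of freedom, no filter on low values, and Benjamini-Hochberg adjustment over all genes at 0.05. The fit was tested on simulated data. Correlations used 100000 permutations, or exact enumeration below 10 arrays, in Python 3.11.15. Background was the 95th percentile over 1180 probe sets of odorant and vomeronasal receptors. The labels number replicates without naming animals, so each array is read as 1 mouse and p-values measure the spread between these samples, which may be technical.

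The 4 genes, the gene lists and the tests were chosen with earlier results of these data known. The text names the 4 genes, the members of each list that passed against control or else the 2 with the smallest p, and the 5 (Nts) or 3 genes with the highest r, apart from receptors of smell, small RNAs and predicted genes. Nefl and the marker lists are named beside results they move with. Alternatives changed variance moderation, array weights, scaling, filter, probe set rule, samples and covariates, and left out each array in turn. The neuron and dopamine covariates and the 12 arrays with low Slc6a3 were chosen after seeing the data.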

Additional observations from a re-analysis of the deposited data

Results flagged for a closer look

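Among 16 groups of the 4 genes (4 to 7 mice each), 2 held a mouse that stood apart from its group, and chance alone marks about 1 in 20 groups. Nts in tumour day 10 replicate 5 read 7.20, and the gap of 0.50 to the next mouse made up 0.843 of the group's range. This mouse still lay below all 4 controls, and without it the day 10 difference passed the test (-0.74, limma adjusted p = 0.0245).

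Ntsr1 in tumour day 14 replicate 1 read 7.46, with a gap of 0.51 to the next mouse, 0.628 of the range. This array belongs to the earlier run of accessions and had a dopamine gene mean of 7.94, against 6.79 to 7.68 in the other mice of that day.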

How the results depend on the processing

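Nts kept a lower mean than control under all 18 alternative settings and all 22 fits with 1 array left out, from -0.70 to -0.46 over the settings on day 10, -0.48 to -0.26 on day 14 and -0.77 to -0.51 on day 17. Of 432 values under the settings, 401 kept their direction and side of the threshold, as did 503 of 528 with 1 array left out. Nts on day 17 lost its call without the 4 arrays highest in thalamus markers (-0.67, limma adjusted p = 0.317), in the later run alone (-0.62, 0.189), with the neuron mean (-0.51, 0.167) and in the arrays with low Slc6a3 (-0.59, 0.437). In the 3 of these that used fewer arrays, limma called 0 genes on day 17. Nts had an unadjusted p below 0.05 under all 18 settings on days 10 and 17, and under 15 of 18 on day 14. Why the day 17 call was lost was not tested. On day 10 Nts was called with an intensity trend (-0.63, limma adjusted p = 0.0430) and with the replicate number as a block (-0.68, 0.0428). Leaving out 1 array, Nts ran from -0.74 to -0.58 on day 10, -0.53 to -0.39 on day 14 and -0.75 to -0.66 on day 17, and Sort1 on day 17 from -0.24 to -0.16. Values near 0 that never passed changed sign. Ntsr1 on day 10 became 0.0019 with the thalamus mean and 0.042 in the later run. Ntsr1 on day 14 became -0.0056 with array weights, -0.025 with a run term, -0.038 with the striatum mean, -0.0034 in the later run, -0.15 with the neuron mean and -0.0019 with the dopamine mean. Ntsr1 on day 17 became -0.028 with a run term, -0.0070 without the 4 thalamus-high arrays and -0.16 with the neuron mean. Ntsr2 on day 14 became -0.042 in the later run and -0.036 in low Slc6a3 arrays. Ntsr2 on day 17 became -0.011 with array weights, -0.087 without the thalamus-high arrays, -0.0081 with the neuron mean and -0.14 in low Slc6a3 arrays. Between days, in the later run Ntsr1 became -0.046 (14 against 10) and -0.015 (17 against 10), Ntsr2 0.042 and Sort1 0.029 (both 17 against 14). Ntsr1 for 17 against 14 became -0.0028 with a run term, -0.059 without the thalamus-high arrays and -0.012 with the neuron mean, and Nts for 17 against 10 became 0.10 in low Slc6a3 arrays. With 1 array left out, Ntsr1 ran from -0.15 to 0.021, -0.089 to 0.12 and -0.062 to 0.13 on days 10, 14 and 17, and Ntsr2 on day 17 from -0.026 to 0.061. Between days those ranges were -0.0041 to 0.14 (Ntsr1) and -0.12 to 0.0074 (Ntsr2) for 14 against 10, -0.12 to 0.037 (Nts) for 17 against 10 and -0.073 to 0.11 (Ntsr1) for 17 against 14. The cause of these changes was not tested. Arrays with the same replicate number share only a number. Their deviations correlated at 0.06 on average over 28 pairs, 13 of them above 0.1, and 6 of 22 arrays correlated best with their own number. That block gave Nts -0.77 on day 17 (limma adjusted p = 0.00392) and raised the genes called from 41 to 140 on day 14 and from 211 to 616 on day 17. Over the settings these calls ran from 0 to 76 on day 10 against 20 as reported, from 0 to 140 on day 14 and from 0 to 616 on day 17. Controls came from day 14 alone.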
